A study of Danio rerio with 6 samples.

Results

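The genes described here are 103 genes whose transcripts stood clearly higher in injured zebrafish hearts that lack *mdka*, the gene for the heparin-binding growth factor Midkine-a. They were chosen by their values in the deposited matrix of 32520 genes. A gene was kept when its mean over the mdka+/+ libraries was at least 3 CPM (the count divided by the sum of its library, scaled to 1000000) and its lowest mdka KO library was at least 1.4 times its highest mdka+/+ library. Of 12855 genes at or above 3 CPM, 134 met the second limit, which is 1.04%. Of these, 16 belong to gene families or named genes that were left out by name (collagens, integrins, laminins, solute carriers and the like), 8 have no symbol, 6 lie on chromosome 7, the chromosome of *mdka*, and 1 has no row in the gene table used here. The remaining 103 were named. That table lists genes of the study's own comparison, and only 1264 of its rows were available. It thus adds a further choice on the same contrast. Because the values of both genotypes chose the genes, every difference between genotypes below is a description and carries no test.

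Midkine is a secreted cytokine that is switched on in the epicardium, the outer layer of the heart, after injury. In the zebrafish the ventricle regrows after a cryoinjury: macrophages clear debris, epicardial cells and fibroblasts lay down a transient matrix, and cardiomyocytes divide into the wound. Genes of the actin skeleton, of the TGF-beta family, of the lysosome and of the matrix are all used in that wound, by different cells.

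The comparison was of 6 libraries, each 1 pool of 3 ventricular apexes taken at 7 days post-cryoinjury (dpci) from adult fish of AB background. Of these, 3 pools (replicates 2, 3 and 4) came from fish with the CRISPR/Cas9 frameshift allele *mdka* cn105, written mdka KO or KO here, and 3 (replicates 1, 2 and 4) from mdka+/+ fish. All 6 pools were cryoinjured, so there is no uninjured control, and a pool averages over its fish. The libraries held 18940128 to 25195457 expected counts. *mdka* itself stood at 83.2, 141 and 148 CPM in KO pools 2, 3 and 4 and at 399.6, 711 and 1018 CPM in mdka+/+ pools 1, 2 and 4. The KO transcript level was thus lower in every pool but not at 0. Throughout, the values of a gene are given in this order of pools. Log2 fold changes are KO over mdka+/+ from edgeR with TMM normalization, with their standard error (SE), and are not on the CPM scale.

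The distance between the genotypes was small for most of the 103 genes. The lowest KO pool was 1.4 to 23.7 times the highest mdka+/+ pool, with a median of 1.55, and 40 genes lay between 1.4 and 1.5. The lowest KO pool reached 2 times the highest mdka+/+ pool in 4 genes, *mhc1uba*, *kng1*, *ccn2b* and *lrrc32*. Log2 fold changes ran from 0.51 to 5.22 with a median of 0.87, and the highest was 1.78 (*kng1*) once *mhc1uba* was set aside. In 54 genes the mean KO level was at least 2 times the mean mdka+/+ level. Libraries that do not overlap, with all KO pools above all mdka+/+ pools, were common in the matrix: 20.0% of the 12855 genes had that pattern, against 103 of 103 here by construction. The limit was also viewed among genes of the gene table that were not left out by name, symbol or chromosome. The nearest of these inside it were *arl5c*, *ctss2.1*, *rcc2*, *net1* and *si:dkeyp-123h10.2*, with ratios of 1.402, 1.402, 1.403, 1.403 and 1.405. The nearest of these outside it were *exo5*, *lmo2*, *dipk2b*, *igsf3* and *olfml3a*, with 1.399, 1.397, 1.396, 1.393 and 1.392. Among these genes, no gap in the values separates the named genes from those just below.

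The scaling of the libraries decided membership for many of them. TMM factors were 1.02 to 1.07 in the KO pools and 0.932 to 0.974 in the mdka+/+ pools, so scaling by the plain column sum set the KO values higher. The median log2 fold change over all 17879 tested genes was -0.01 with TMM and 0.13 with library size only, and that of the 103 genes was 0.87 and 1.01. With TMM-scaled CPM, 67 genes of the matrix met the limits and 49 of the 103 named genes remained among them. The mirrored limits, with the mdka+/+ pools higher, were met by 9 genes with column sums and by 22 with TMM.

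**Figure D1:**
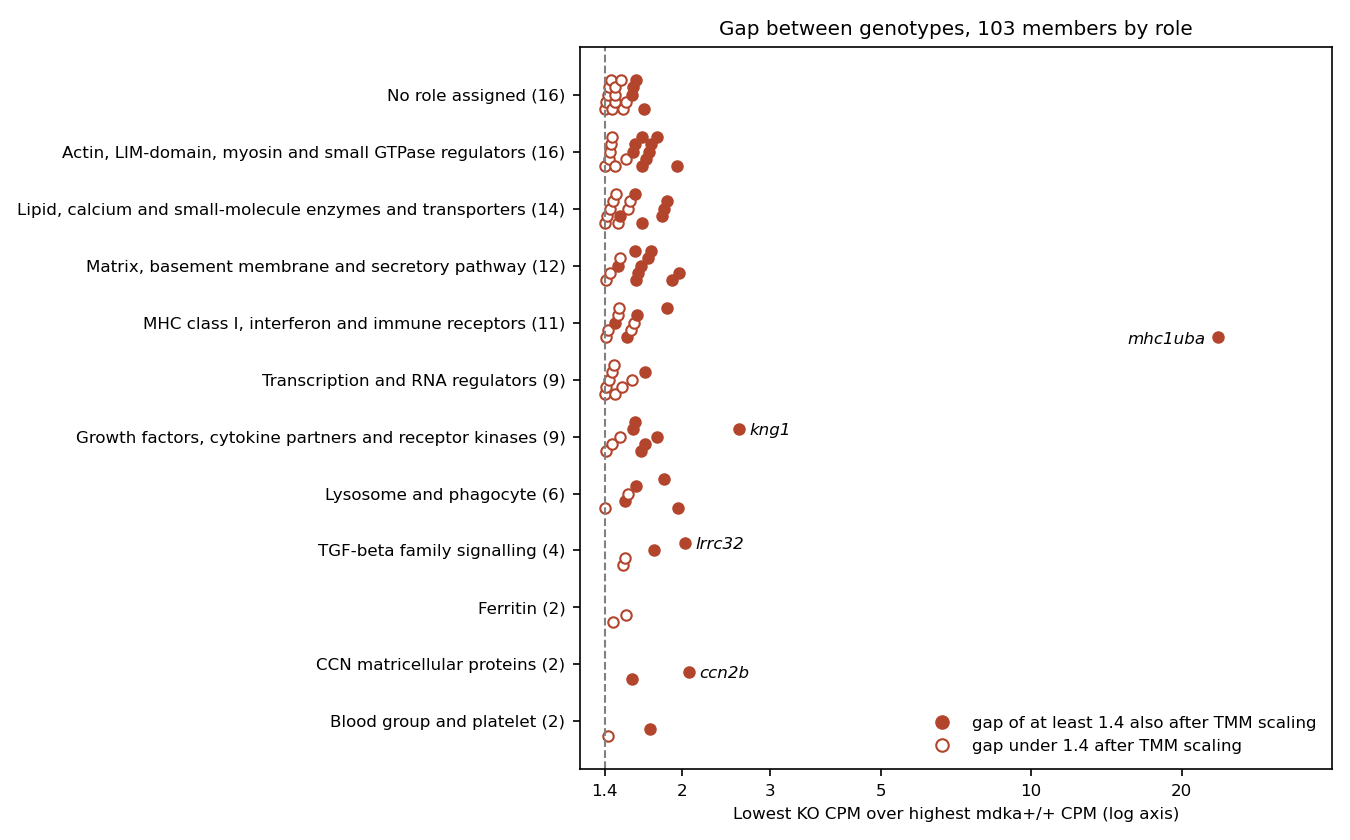
Lowest mdka KO CPM divided by highest mdka+/+ CPM (log axis) for each of the 103 genes, 1 point a gene, in rows by role with the number of genes in parentheses, and the dashed line at 1.4. Filled points are the 49 genes that also reach 1.4 after TMM scaling, *mhc1uba* stands alone at 23.7, and only 1 of the 9 transcription and RNA regulators is filled.

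By role, 16 genes were grouped under actin, LIM-domain, myosin or small GTPase function. This group is broad and holds, for example, the intermediate filament gene *nes* and the ferlin family gene *myofl*. A further 14 are enzymes or carriers for lipids, calcium or small molecules, and 12 act in the matrix or the secretory pathway. Antigen presentation, interferon response or immune signalling has 11, and 9 each are growth factors or receptors and transcription or RNA regulators. Another 6 act in the lysosome or in phagocytes, 4 in TGF-beta family signalling, and 2 each are CCN proteins, ferritins and blood group or platelet genes. For 16 genes no role was assigned. After TMM scaling the limits were still met by 9 of 12 matrix genes, 9 of 16 genes of the actin group and 6 of 9 growth factor genes. They were also met by 6 of 14 enzymes and carriers, 5 of 11 immune genes, 4 of 6 lysosome and phagocyte genes and 2 of 4 TGF-beta family genes. Of the smaller groups, 2 of 2 CCN genes, 1 of 2 blood group or platelet genes and 0 of 2 ferritins met them. Only 1 of 9 transcription genes and 4 of 16 genes with no assigned role did.

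The TGF-beta family genes cover a carrier, a ligand, a decoy receptor and a BMP. *lrrc32*, whose mammalian product GARP holds latent TGF-beta at the cell surface (chr10:252425-257043, GRCz11), stood at 20.2, 16.4 and 15.5 CPM in the KO pools and at 6.58, 7.41 and 7.67 CPM in the mdka+/+ pools. Each KO pool was more than 2 times each mdka+/+ pool, and the log2 fold change was 1.13 ± 0.16 (SE). *inhbaa*, a subunit of activin (chr24:3050020-3062610), stood at 12.07, 13.1 and 21.3 CPM against 4.67, 6.86 and 3.46 CPM, a log2 fold change of 1.49 ± 0.30 (SE). KO pool 4 was well above the other KO pools.

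*bambia*, a pseudoreceptor that dampens TGF-beta and BMP signalling, stood at 109, 106 and 101 CPM against 65.5, 54.4 and 54.4 CPM, with tight groups and a log2 fold change of 0.71 ± 0.13 (SE). *bmp3*, a BMP that in mammals opposes other BMPs, stood at 12.7, 9.51 and 8.36 CPM against 5.50, 3.28 and 5.01 CPM, with a log2 fold change of 1.01 ± 0.27 (SE). Its SD in CPM was larger in the KO pools, but relative to the mean it was 22.1% in KO and 25.4% in mdka+/+. The second gene annotated as an inhibin beta A subunit overlapped between genotypes, at 2.94, 3.72 and 5.07 CPM against 3.29, 2.98 and 4.36 CPM (log2 fold change -0.01 ± 0.27 SE). Whether it differed from *inhbaa* in its response was not tested. After TMM scaling, *lrrc32* and *inhbaa* still met the limits, while *bambia* (ratio 1.35) and *bmp3* (ratio 1.34) did not.

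Of 46 other tested genes in a list of activin, BMP and inhibitor genes, 4 passed an unadjusted edgeR p under 0.05 upwards and 2 downwards, where 5.64% of all tested genes passed upwards and 6.42% downwards. Their median log2 fold change was -0.01, equal to that of all genes. Those that passed upwards were *grem1a*, a secreted BMP antagonist, at 1.45 ± 0.36 (SE), and *smad6b*, an inhibitory Smad, at 0.68 ± 0.17 (SE). The others upwards were *bmp6* at 0.61 ± 0.20 (SE) and the gene annotated as ID1 at 0.40 ± 0.16 (SE), all log2 fold changes. *fstl3*, an activin-binding protein, at -1.08, and *bmp2a* at -0.75 passed downwards. Mean levels of *grem1a*, *fstl3* and *bmp2a* lay under 3 CPM in both genotypes. They were 1.89, 1.15 and 1.35 CPM in KO and 0.623, 2.18 and 2.06 CPM in mdka+/+. None of the 46 passed after Benjamini-Hochberg adjustment in the edgeR fit, in which their lowest adjusted p was 0.213. Of all tested genes 1 passed upwards after adjustment (0.00559%) and 0 downwards. The gene upwards was *mhc1uba*, which was chosen for its gap in these same pools, so its pass adds no support. The knocked-out gene *mdka* did not pass either, at a log2 fold change of -2.66 ± 0.36 (SE) and an edgeR adjusted p of 0.094. A gene that falls short of this threshold, here and below, is thus not shown to be unchanged. Scaled by library size only, the list gave 7 up and 2 down, and leaving out 1 library at a time gave 2 to 6 up and 0 to 3 down.

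Both zebrafish genes for connective tissue growth factor, a matricellular CCN protein that is a textbook target of YAP/TEAD and of TGF-beta, were among the 103. *ccn2a* (chr20:25340814-25343490) stood at 419, 414 and 634 CPM in the KO pools and at 153, 261 and 157 CPM in the mdka+/+ pools. The highest KO pool was replicate 4 and the highest mdka+/+ pool replicate 2. *ccn2b* (chr19:13803155-13808632) stood at 15.9, 16.3 and 18.5 CPM against 7.71, 5.85 and 6.07 CPM, with narrow groups. The log2 fold changes of the pair were nearly equal, 1.22 ± 0.25 and 1.22 ± 0.17 (SE), and all 12 counts of the pair were whole numbers, so the table shows no division of reads between them.

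Other CCN genes overlapped between genotypes. *ccn1*, the other well-known YAP target of the family, stood at 213, 149 and 172 CPM against 86.7, 245 and 164 CPM (log2 fold change -0.02 ± 0.33 SE, edgeR adjusted p = 0.993), and *ccn1l2* gave a log2 fold change of -0.03 ± 0.26 (SE, adjusted p = 0.983). Among 23 other tested genes of the CCN and YAP/TEAD list, 1 passed the unadjusted threshold upwards (the receptor kinase gene AXL, log2 fold change 0.66) and 1 downwards (a VGLL4 gene, -0.74). The median was -0.03, and none passed after adjustment in edgeR (lowest edgeR adjusted p 0.213). Scaling by library size only gave 3 upwards and 0 downwards.

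**Figure D2:**
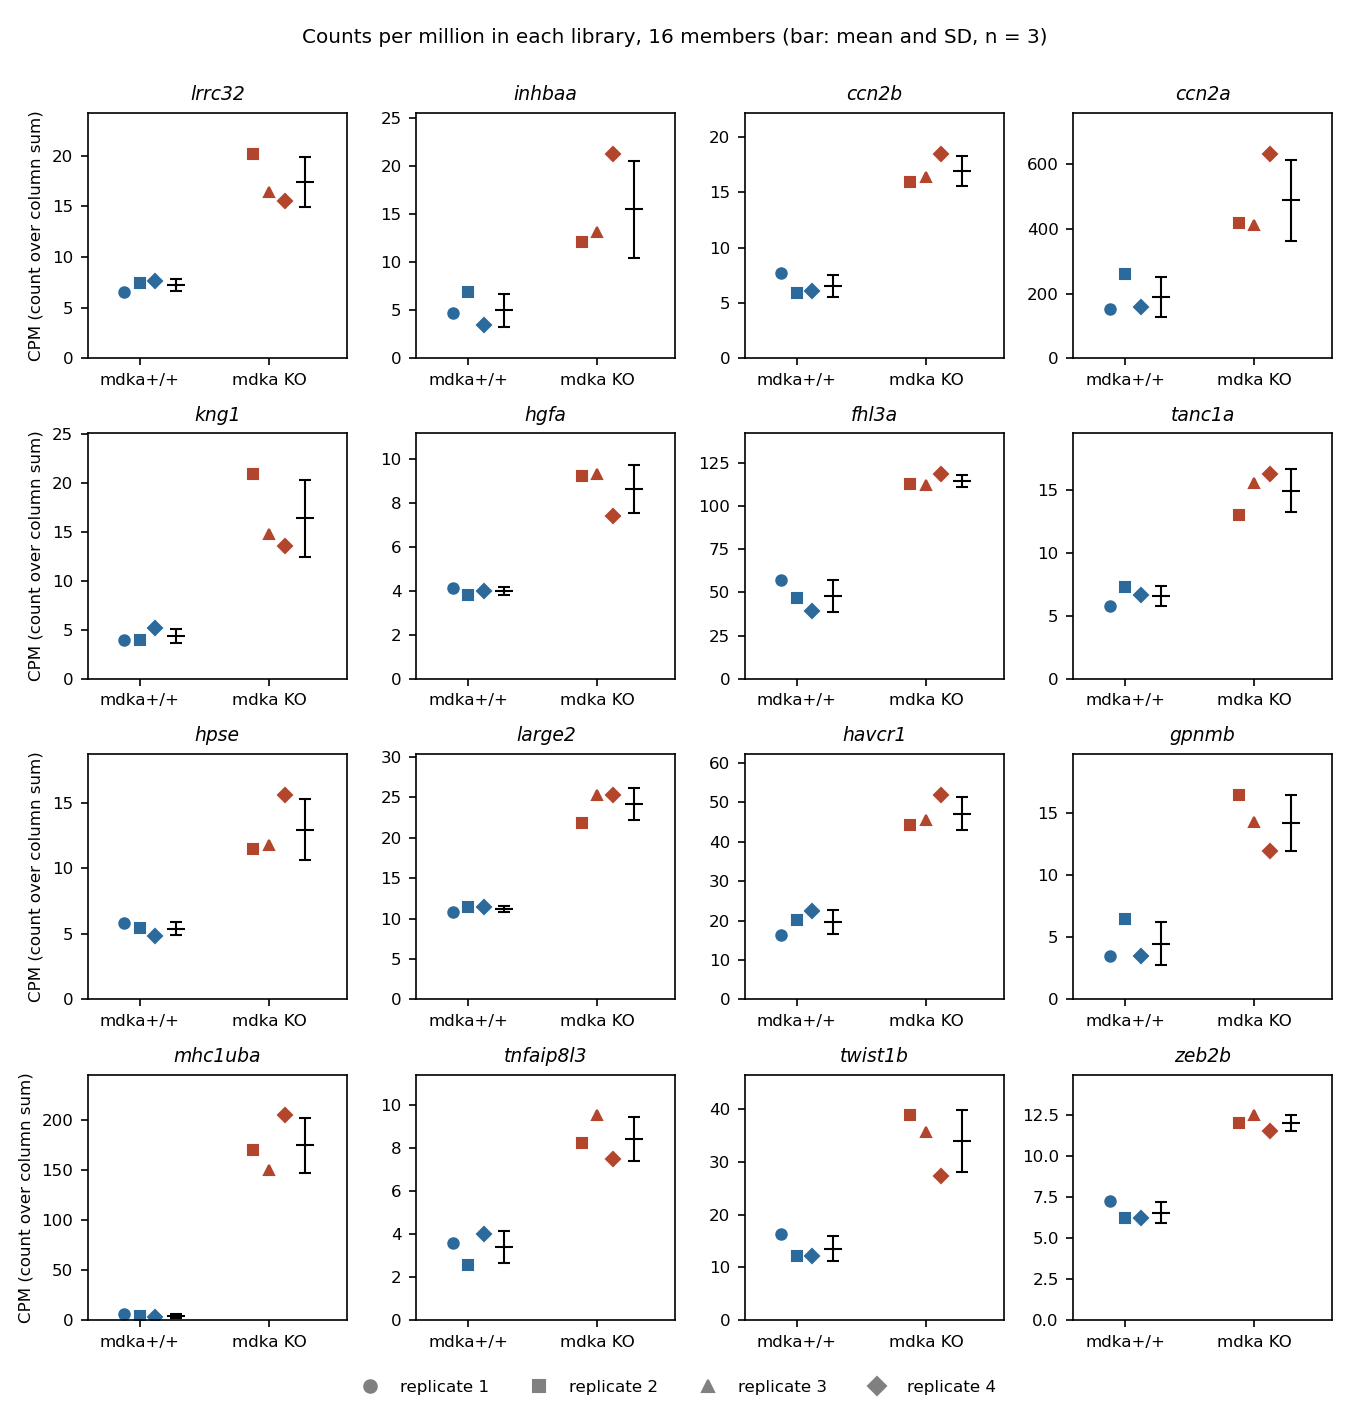
CPM in each library for 16 of the 103 genes, namely those with the widest gap between genotypes in each of 8 roles (2 a role), with mdka+/+ in blue, mdka KO in red, the marker shape for the replicate number and the bar for the mean and SD (n = 3). All KO points lie above all mdka+/+ points in each panel, as the choice of genes fixes, and the KO pools of *fhl3a*, for example, lie at 112 to 118 CPM and those of *ccn2a* at 414 to 634 CPM.

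The 16 genes grouped under actin, LIM-domain, myosin and small GTPase function were led by *fhl3a*. It encodes a LIM-only protein that binds actin and transcription factors. It stood at 113, 112 and 118 CPM in the KO pools against 57.4, 47.0 and 39.0 CPM. The KO pools were almost equal and the mdka+/+ pools spread more, with a log2 fold change of 1.12 ± 0.16 (SE). *tanc1a*, a scaffold protein gene, stood at 13.0, 15.6 and 16.3 CPM against 5.76, 7.31 and 6.67 CPM (log2 fold change 1.05 ± 0.15 SE).

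*dapk1*, a calmodulin-regulated kinase that acts on myosin light chains and cell death, was among the least variable, at 24.9, 26.0 and 25.6 CPM against 13.4, 14.4 and 13.2 CPM (log2 fold change 0.76 ± 0.11 SE). *myofl*, a myoferlin-like gene of the ferlin family of membrane fusion and repair proteins, stood at 108, 115 and 123 CPM against 63.1, 55.3 and 54.0 CPM (0.86 ± 0.12 SE). *ripor3* stood at 16.3, 13.7 and 13.5 CPM against 4.50, 7.97 and 7.52 CPM (0.99 ± 0.23 SE), with mdka+/+ pool 1 the lowest. These 5 genes, from *fhl3a* to *ripor3*, also met the limits after TMM scaling.

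The other 11 had log2 fold changes from 0.65 to 1.0 and lowest KO pools 1.4 to 1.66 times the highest mdka+/+ pool. They include *cald1a* (caldesmon, an actin and myosin binder of smooth muscle and non-muscle cells), *myl6* (an essential light chain of non-muscle and smooth muscle myosin), *actn1* (alpha-actinin, an actin cross-linker), *lpp* and *tes* (LIM proteins of focal adhesions), *net1* (an exchange factor for small GTPases), *nes* (the intermediate filament nestin), *itprid2*, *quo* and *tpte*. Mean levels of these 11 ran from 8.48 to 125 CPM in the mdka+/+ pools and from 17.7 to 236 CPM in the KO pools.

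Other actin and focal adhesion genes showed no common direction. Of 60 tested, 6 passed the unadjusted threshold upwards and 7 downwards, with a median log2 fold change of 0.02 and none past adjustment in edgeR (lowest edgeR adjusted p 0.073). One of the 6, *fhl1b*, met the numeric limits and was left out of the 103 only by name, and 5 passed upwards without it. *flna*, filamin A, passed upwards, at 929, 893 and 1034 CPM against 649, 577 and 463 CPM (log2 fold change 0.62 ± 0.15 SE), as did *tpm4b*, a tropomyosin, at 0.67 ± 0.15 (SE). *tpm4a* (-0.41), *myl9b* (-0.43), *limd1a* (-0.69) and *parvb* (-0.46) passed downwards. The split was 10 up and 3 down with library size only. Without mdka+/+ replicate 1 it was 11 up and 10 down, and without KO replicate 4 it was 3 up and 4 down.

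Of the 12 genes of the matrix, its enzymes and the secretory pathway, 5 had the widest gaps. *hpse*, heparanase, which cuts heparan sulfate chains, stood at 11.5, 11.8 and 15.6 CPM in the KO pools against 5.83, 5.47 and 4.87 CPM (log2 fold change 1.12 ± 0.18 SE), with KO pool 4 the highest. *large2*, which builds the laminin-binding glycan of dystroglycan, stood at 21.9, 25.3 and 25.3 CPM against 10.8, 11.4 and 11.4 CPM (0.97 ± 0.11 SE), a narrow spread in both groups.

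*tram2*, a translocation protein of the endoplasmic reticulum linked to type I collagen synthesis, was the least variable of the 5, at 18.7, 19.5 and 18.7 CPM against 10.4, 10.5 and 10.8 CPM (log2 fold change 0.70 ± 0.11 SE). *gcnt4a*, an enzyme that branches O-glycans, stood at 13.1, 14.96 and 12.8 CPM against 7.49, 6.15 and 6.47 CPM (0.88 ± 0.15 SE). *hmcn2*, the basement membrane linker hemicentin 2, stood at 128, 148 and 98.9 CPM against 59.8, 38.9 and 39.8 CPM (1.29 ± 0.23 SE). Its KO pools spread the most of these 5, and its counts were not whole in any pool, so some of its reads were divided among genes.

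The other 7, *tmtc2a*, *fkbp7*, *nid2a*, *elnb*, *chst11*, *mxra8b* and *mgat1b*, had log2 fold changes from 0.60 to 1.36. Among them *elnb* encodes tropoelastin, *nid2a* the basement membrane protein nidogen 2, *fkbp7* a prolyl isomerase of the endoplasmic reticulum, *chst11* a chondroitin sulfotransferase and *mgat1b* an enzyme of N-glycan processing. KO pool 3 was the highest KO pool for 7 of the 12, beside 37.6% of all genes at or above 3 CPM.

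Here other list genes leaned the same way, though the list was drawn up with earlier results of these data known. Of 34 other tested basement membrane, elastic fibre and matrix-linked genes, 12 passed the unadjusted threshold upwards and 0 downwards. Of all tested genes, 5.64% passed upwards and 6.42% downwards. The median log2 fold change of the 34 was 0.20 beside -0.01 for all genes. None passed after adjustment in edgeR (lowest edgeR adjusted p 0.213). They include *fbln5*, fibulin 5 of elastic fibres (0.80 ± 0.22 SE), *fkbp9* (0.67 ± 0.17 SE), *fkbp10b* (0.62 ± 0.22 SE) and *fkbp14* (0.66 ± 0.19 SE), of the same isomerase family as *fkbp7*, and *sparc*, a collagen-binding glycoprotein (0.49 ± 0.17 SE). *sparc* stood at 778, 881 and 885 CPM against 421, 561 and 664 CPM, and mdka+/+ pool 4 was the nearest to the KO pools. Leaving out 1 library at a time gave 7 to 11 upwards and 0 or 1 downwards, with 7 without KO replicate 3 or 4. Summed markers of fibroblasts and epicardium were higher on average but overlapped, at 8242 to 11214 CPM in the KO pools and 6378 to 9007 CPM in the mdka+/+ pools (2 of 16 genes passed upwards and 0 downwards), and their part in the result was not tested. In such whole-tissue pools, more cells of a type and more RNA per cell cannot be told apart.

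**Figure D3:**
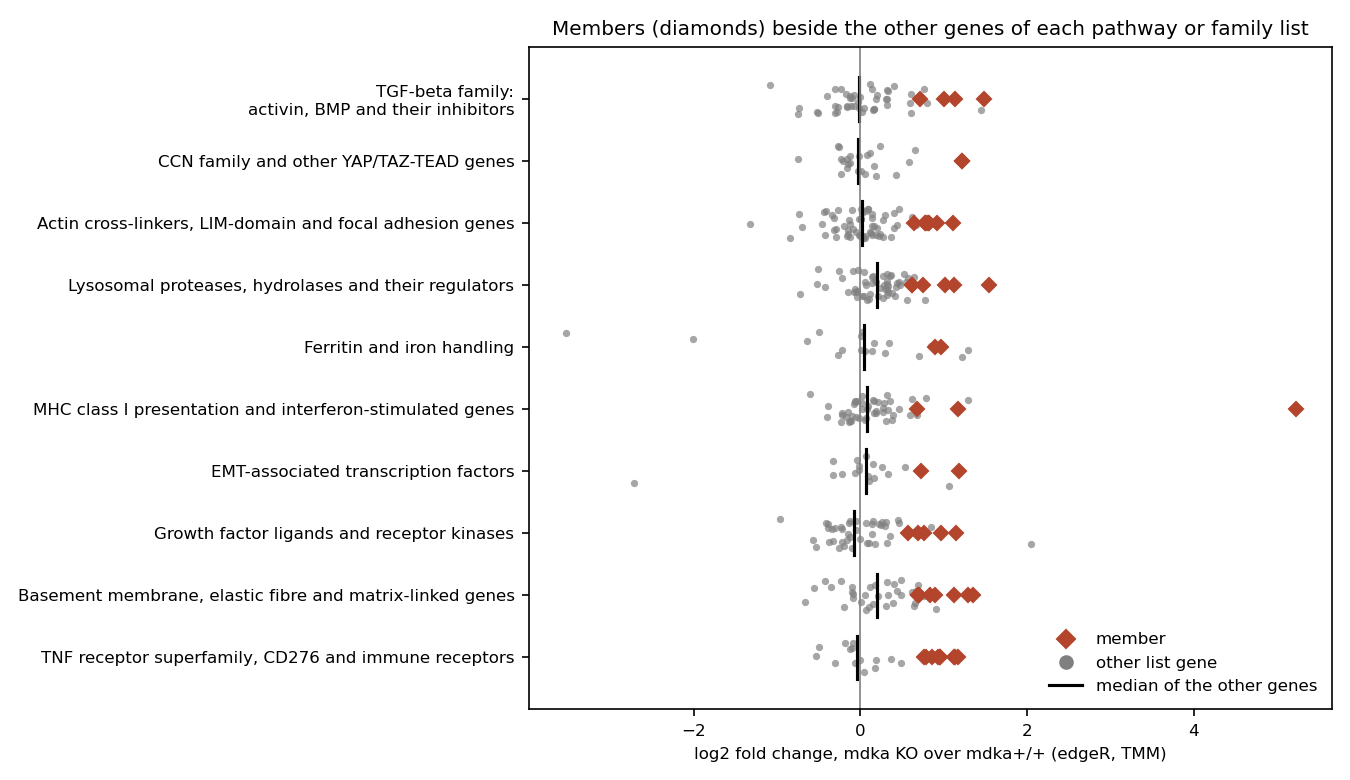
Log2 fold change (mdka KO over mdka+/+, edgeR with TMM) of the genes in 10 pathway or family lists, with the chosen genes as red diamonds, the other tested genes as grey points and the median of those others as a black bar. The medians of the other genes lie between -0.08 and 0.20, highest for the lysosome and the basement membrane lists, and the diamonds lie to the right because they were chosen there.

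Among the 103 were 6 lysosome and phagocyte genes. *havcr1*, a Tim family receptor for phosphatidylserine on dying cells, stood at 44.2, 45.4 and 51.9 CPM in the KO pools against 16.4, 20.2 and 22.5 CPM (log2 fold change 1.12 ± 0.14 SE). *gpnmb*, a transmembrane glycoprotein of phagocytes with a heavy lysosomal load, stood at 16.4, 14.3 and 11.9 CPM against 3.51, 6.47 and 3.46 CPM (1.54 ± 0.27 SE). In *gpnmb* the mdka+/+ pool 2 was the nearest to the KO pools.

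The proteases had smaller differences. *ctsz*, cathepsin Z, stood at 109.7, 123 and 131 CPM against 60.1, 67.0 and 67.7 CPM (log2 fold change 0.76 ± 0.11 SE). *ctsd*, cathepsin D, stood at 339, 340.2 and 359 CPM against 176, 217 and 218 CPM (0.63 ± 0.11 SE). *lgmn*, legumain, which activates cathepsins, stood at 412, 455 and 461 CPM against 252, 268 and 267 CPM (0.62 ± 0.10 SE). In each of the 3, the pools of 1 genotype were close together.

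*ctss2.1*, a cathepsin S gene, stood at 93.0, 133 and 141 CPM against 42.3, 66.3 and 55.7 CPM (log2 fold change 1.02 ± 0.20 SE). Its counts were not whole in any of the 6 pools, since its reads were divided with other genes. The other named copy, *ctss2.2*, stood at 73.9, 129 and 142 CPM against 51.5, 55.0 and 74.8 CPM, with KO pool 2 below mdka+/+ pool 4. Summed over the pair, the lowest KO pool was 1.28 times the highest mdka+/+ pool, under the limit of 1.4. KO pool 4 was the highest KO pool for 5 of the 6 lysosome and phagocyte genes, beside 38.5% of all genes at or above 3 CPM.

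Of 54 other tested lysosomal genes, 13 passed the unadjusted threshold upwards and 1 downwards, beside 5.64% and 6.42% of all tested genes. This list, like all 10 lists, was drawn up with earlier results of these data known. Their median log2 fold change was 0.20, and none passed adjustment in edgeR (lowest edgeR adjusted p 0.195). Among those upwards were *ctsk*, the collagen-degrading cathepsin K (log2 fold change 0.65 ± 0.20 SE), *ctsba*, cathepsin B (0.47 ± 0.11 SE), *tpp1*, a lysosomal peptidase (0.55 ± 0.14 SE), and *psap*, prosaposin (0.37 ± 0.10 SE). The gene that passed downwards was *lamp1b*, a lysosomal membrane protein (-0.51 ± 0.11 SE). Library size only gave 23 upwards. Leaving out 1 library gave 7 to 16, the lowest without KO replicate 4, with 8 without KO replicate 3 or mdka+/+ replicate 2. Macrophage markers moved with this group: their summed level was 729.6 to 893 CPM in the KO pools and 523 to 556 CPM in the mdka+/+ pools, 5 of 10 genes passed the unadjusted threshold upwards and 0 downwards, and none was at 0 in all pools. Their part in the result was not tested.

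Antigen presentation held the gene that stood furthest apart. *mhc1uba* encodes an MHC class I heavy chain of the classical U lineage, which shows peptides to T cells (chr19:7072854-7101100). Zebrafish are known to differ from each other in the set of class I genes they carry. It stood at 169.9, 149.8 and 205 CPM in the KO pools and at 6.32, 3.63 and 2.66 CPM in the mdka+/+ pools. The lowest KO pool was 23.7 times the highest mdka+/+ pool, and the log2 fold change was 5.22 ± 0.34 (SE). Its mean was 175 ± 27.8 CPM in KO and 4.20 ± 1.90 CPM in mdka+/+ (SD over 3 pools each), 41.6 times as high. All 6 of its counts were whole numbers.

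The other class I genes gave other values. *mhc1uca*, of the same lineage, stood at 17.5, 22.8 and 20.4 CPM against 25.9, 18.2 and 12.5 CPM, with overlapping groups (log2 fold change -0.05 ± 0.26 SE, edgeR adjusted p = 0.975). *mhc1zba*, of the Z lineage, stood at 627, 658 and 678 CPM against 743, 605 and 491 CPM, also overlapping (-0.05 ± 0.16 SE, adjusted p = 0.960). Summed over the 3 named U-lineage genes the level was 187, 173 and 225 CPM against 32.2, 21.8 and 15.2 CPM, a ratio of means of 8.46. The third gene, *mhc1uma*, added nothing to these values, so the sum is that of *mhc1uba* and *mhc1uca*.

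Of the other 10 genes of this role, 4 had the widest gaps. *tnfaip8l3*, a carrier of phosphoinositide lipids, stood at 8.26, 9.51 and 7.50 CPM in the KO pools against 3.59, 2.57 and 4.01 CPM (log2 fold change 1.17 ± 0.22 SE). *tnfrsf9a*, a costimulatory TNF receptor (4-1BB in mammals), stood at 13.5, 13.4 and 25.9 CPM against 7.66, 8.27 and 5.77 CPM (1.14 ± 0.29 SE). For *tnfrsf9a* KO pool 4 stood far above the other KO pools.

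*cd276*, an immune checkpoint molecule of the B7 family, stood at 82.1, 80.0 and 104 CPM against 49.9, 43.5 and 46.5 CPM (log2 fold change 0.79 ± 0.14 SE). *ptpreb*, a receptor tyrosine phosphatase, stood at 18.3, 14.0 and 17.1 CPM against 8.87, 8.22 and 6.42 CPM (0.93 ± 0.19 SE). The other 6, *klhl6*, *tnfrsf21*, *isg15*, *ms4a17a.10*, *cd83* and *ifi46*, had log2 fold changes from 0.69 to 1.17. *isg15* encodes the ubiquitin-like modifier induced by interferon, *cd83* a surface protein of activated dendritic cells, *klhl6* an adaptor of B-cell signalling and *tnfrsf21* a death receptor. Their mean levels were low, at 3.18 to 14.3 CPM in the mdka+/+ pools.

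Of 47 other tested MHC class I and interferon genes, 6 passed the unadjusted threshold upwards and 1 downwards, with a median log2 fold change of 0.08 and none past adjustment in edgeR (lowest edgeR adjusted p 0.197). Among the 6 were the invariant chain genes *cd74a* (0.68 ± 0.17 SE) and *cd74b* (0.79 ± 0.18 SE), which serve MHC class II rather than class I, and *irf8*, a transcription factor of macrophages (0.47 ± 0.12 SE). *b2m*, the shared light chain of class I, was at 0.19 ± 0.15 (SE) and did not pass. With library size only, 10 passed upwards and 0 downwards, and without mdka+/+ replicate 1, 16 passed upwards and 1 downwards. Of 16 other genes in a list of TNF receptors and immune receptors, 2 passed upwards, 1 downwards and none after adjustment (lowest edgeR adjusted p 0.323). Lymphocyte markers summed to 21.3 to 82.7 CPM in the KO pools and 19.1 to 39.0 CPM in the mdka+/+ pools and overlapped, with 0 of 8 tested genes past the unadjusted threshold. Neutrophil markers summed to 153 to 205 CPM against 113 to 368 CPM and overlapped as well, with 0 of 6 upwards and 1 downwards.

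Among 9 growth factors, cytokine partners and receptors, *kng1* had the widest gap. It encodes kininogen, the precursor of bradykinin, and stood at 20.9, 14.8 and 13.6 CPM in the KO pools against 3.94, 3.93 and 5.22 CPM (log2 fold change 1.78 ± 0.23 SE). KO pool 2 was the highest, and the lowest KO pool was 2.60 times the highest mdka+/+ pool. *hgfa*, hepatocyte growth factor, the ligand of Met, stood at 9.25, 9.31 and 7.39 CPM against 4.16, 3.83 and 4.01 CPM (0.97 ± 0.18 SE), with the mdka+/+ pools almost equal.

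*pdgfab*, a platelet-derived growth factor A ligand, stood at 7.94, 8.27 and 8.34 CPM against 4.80, 4.64 and 4.31 CPM (log2 fold change 0.69 ± 0.15 SE), and the receptor gene *fgfr3* at 9.37, 9.56 and 9.24 CPM against 5.11, 5.75 and 4.21 CPM (0.76 ± 0.17 SE). The KO pools of *pdgfab* and *fgfr3* were nearly equal. A further 4, *cmklr1* (the receptor of the attractant chemerin), *mpl* (the thrombopoietin receptor), *adcy2b* (an adenylyl cyclase) and *epha4a* (an ephrin receptor), had log2 fold changes from 0.58 to 1.31.

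Other ligands and receptors gave mixed values. *clcf1*, a cytokine of the IL-6 family, was too low for the limit of 3 CPM, at 1.55, 1.88 and 2.11 CPM against 0.346, 0.303 and 0.552 CPM, and gave a log2 fold change of 2.05 ± 0.36 (SE, edgeR adjusted p = 0.154). Its receptor subunits overlapped between genotypes, with log2 fold changes of *cntfr* at -0.12 ± 0.21 (SE) and *il6st* at -0.01 ± 0.15 (SE). The gene annotated as the Met receptor, at -0.39 ± 0.51 (SE), and those annotated as PDGF receptors alpha and beta, at 0.15 ± 0.19 and -0.15 ± 0.14 (SE), did not pass. Of 42 other tested ligands and receptors, 3 passed the unadjusted threshold upwards and 4 downwards, with a median log2 fold change of -0.08 and none past adjustment in edgeR (lowest edgeR adjusted p 0.154). The counts were 6 and 1 with library size only, and 1 to 4 and 1 to 6 when 1 library was left out.

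Of 9 transcription and RNA regulators, *twist1b*, a bHLH factor of mesenchymal cells, stood at 38.9, 35.8 and 27.5 CPM in the KO pools against 16.3, 12.3 and 12.14 CPM (log2 fold change 1.19 ± 0.19 SE). KO pool 4 was the lowest KO pool. *zeb2b*, a zinc finger repressor of epithelial genes, stood at 12.0, 12.5 and 11.6 CPM against 7.27, 6.20 and 6.22 CPM (0.73 ± 0.15 SE).

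*carhsp1*, a cold-shock domain protein that binds RNA, stood at 15.9, 15.8 and 15.3 CPM against 7.40, 9.58 and 10.1 CPM (log2 fold change 0.66 ± 0.15 SE). *rbm38*, an RNA-binding target of p53 in mammals, stood at 9.33, 8.62 and 12.3 CPM against 4.03, 4.64 and 5.87 CPM (0.92 ± 0.21 SE). *foxp4*, a forkhead repressor, stood at 117, 129 and 121 CPM against 73.5, 80.0 and 71.3 CPM (0.57 ± 0.10 SE). The other 4, *esr1* (an oestrogen receptor), *rbfox1* (a splicing regulator), *fam53b* (linked to Wnt signalling) and *rcc2* (a mitotic and Rac regulator), had log2 fold changes from 0.60 to 0.82. Of the 9, *twist1b* alone met the limits after TMM scaling.

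The paralogs of the transcription factors gave other values. *twist1a* stood at 3.02, 5.15 and 4.80 CPM against 4.20, 5.40 and 4.06 CPM (log2 fold change -0.22 ± 0.24 SE, edgeR adjusted p = 0.814), and *zeb2a* gave 0.15 ± 0.10 (SE, adjusted p = 0.663). Among 17 other tested transcription factors associated with epithelial-mesenchymal transition, 1 passed the unadjusted threshold upwards and 2 downwards, and the median log2 fold change was 0.07. The gene upwards was *snai1b*, which met the numeric limits and was left out of the 103 only by name, and 0 of the 16 others passed upwards. With library size only, 6 passed upwards and 1 downwards. Whether paralogs differed in response was not tested.

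The 14 enzymes and carriers for lipids, calcium and small molecules were mixed in function. *tmem45a*, a transmembrane protein gene, stood at 36.7, 39.2 and 44.4 CPM in the KO pools against 18.5, 18.1 and 19.6 CPM (log2 fold change 0.96 ± 0.11 SE). *abcg2a*, an efflux pump, stood at 31.3, 35.5 and 35.7 CPM against 13.6, 14.7 and 17 CPM (1.04 ± 0.12 SE). For both, the pools of each genotype were close together.

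*gda*, guanine deaminase, stood at 12.2, 11.1 and 17.3 CPM against 2.99, 5.40 and 6.12 CPM (log2 fold change 1.35 ± 0.29 SE), with a wider spread. *s100u*, a calcium-binding S100 protein, stood at 99.5, 100.1 and 105 CPM against 53.2, 59.7 and 58.5 CPM (0.69 ± 0.10 SE), and *fbxl7*, an F-box protein of ubiquitin ligases, at 24.3, 24.0 and 21.7 CPM against 13.5, 13.4 and 11.1 CPM (0.75 ± 0.13 SE). The other 9 had log2 fold changes from 0.56 to 1.70 and mean levels of 3.55 to 16.3 CPM in the mdka+/+ pools. The highest of these was *plcd4a*, a phospholipase C, with 10.6, 23.3 and 7.23 CPM against 4.59, 3.23 and 3.56 CPM, singled out after its values were seen. KO pool 3 stood far above its other KO pools, and its SD over the KO pools was 61.9% of their mean, the largest of the 103.

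Both ferritin genes among the 103 lie close together on the same chromosome. *fthl27* (chr3:32099507-32100999) stood at 301, 429.9 and 322 CPM in the KO pools against 207, 164 and 139.8 CPM (log2 fold change 0.90 ± 0.19 SE). *fthl31* (chr3:32118670-32120354), 17671 bases away, stood at 16.3, 19.4 and 13.5 CPM against 8.71, 6.94 and 7.18 CPM (0.96 ± 0.18 SE). KO pool 3 was the highest KO pool in both. Neither had a whole count in any pool, so some of their reads were divided with other genes. Neither met the limits after TMM scaling, with ratios of 1.33 (*fthl27*) and 1.36 (*fthl31*).

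Summed over the 5 ferritin-heavy-like genes of the files, without TMM scaling, the ratio of means was 2.11. The lowest KO pool of that sum was 1.45 times the highest mdka+/+ pool. *fth1a*, the main ferritin heavy chain gene, gave a log2 fold change of 0.01 ± 0.21 (SE). Among 18 other tested iron genes, 2 passed the unadjusted threshold upwards and 2 downwards. *hamp*, the iron hormone hepcidin, was one of those downwards, at 0.635, 0.595 and 0.950 CPM against 19.1, 3.03 and 0.351 CPM, and rested on mdka+/+ pool 1. Without that pool, 3 of the 18 passed upwards and 0 downwards.

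The platelet gene *gp1bb*, a subunit of the von Willebrand factor receptor, stood at 45.5, 52.3 and 45.4 CPM in the KO pools against 13.5, 26.2 and 21.1 CPM (log2 fold change 1.1 ± 0.21 SE). *rhd*, of the Rh blood group family, stood at 11.1, 10.4 and 18.5 CPM against 3.90, 7.31 and 7.27 CPM (0.98 ± 0.30 SE). KO pool 4 was the highest for *rhd* and mdka+/+ pool 1 the lowest for both. Counts of *gp1bb* were not whole in any pool. Of 8 tested thrombocyte markers outside the 103, 5 passed the unadjusted threshold upwards and 0 downwards, among them *itga2b* at 51.8, 29.2 and 39.7 CPM against 17.3, 21.3 and 28.2 CPM and *nfe2* at 11.9, 8.87 and 9.29 CPM against 4.67, 6.51 and 3.61 CPM. One of the 5, *thbs1b*, met the numeric limits itself and was left out of the 103 only by name, so 4 of the 7 others passed. Summed without *gp1bb*, *mpl* and *thbs1b* (an alternative chosen after the values were seen), the thrombocyte markers stood at 367 to 417 CPM in the KO pools and 310.1 to 437 CPM in the mdka+/+ pools, which overlap. That sum follows its most abundant genes, and *itga2b* and *nfe2* are a small part of it. The median log2 fold change of the 7 genes was 0.57. Erythrocyte markers moved with *rhd*, at 5535 to 12358 CPM against 3166 to 5505 CPM, with KO pool 4 the highest, 6 of 10 past the unadjusted threshold upwards and 0 downwards. With TMM scaling the erythrocyte sums of the genotypes overlap. The part of blood cells in these results was not tested.

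**Figure D4:**
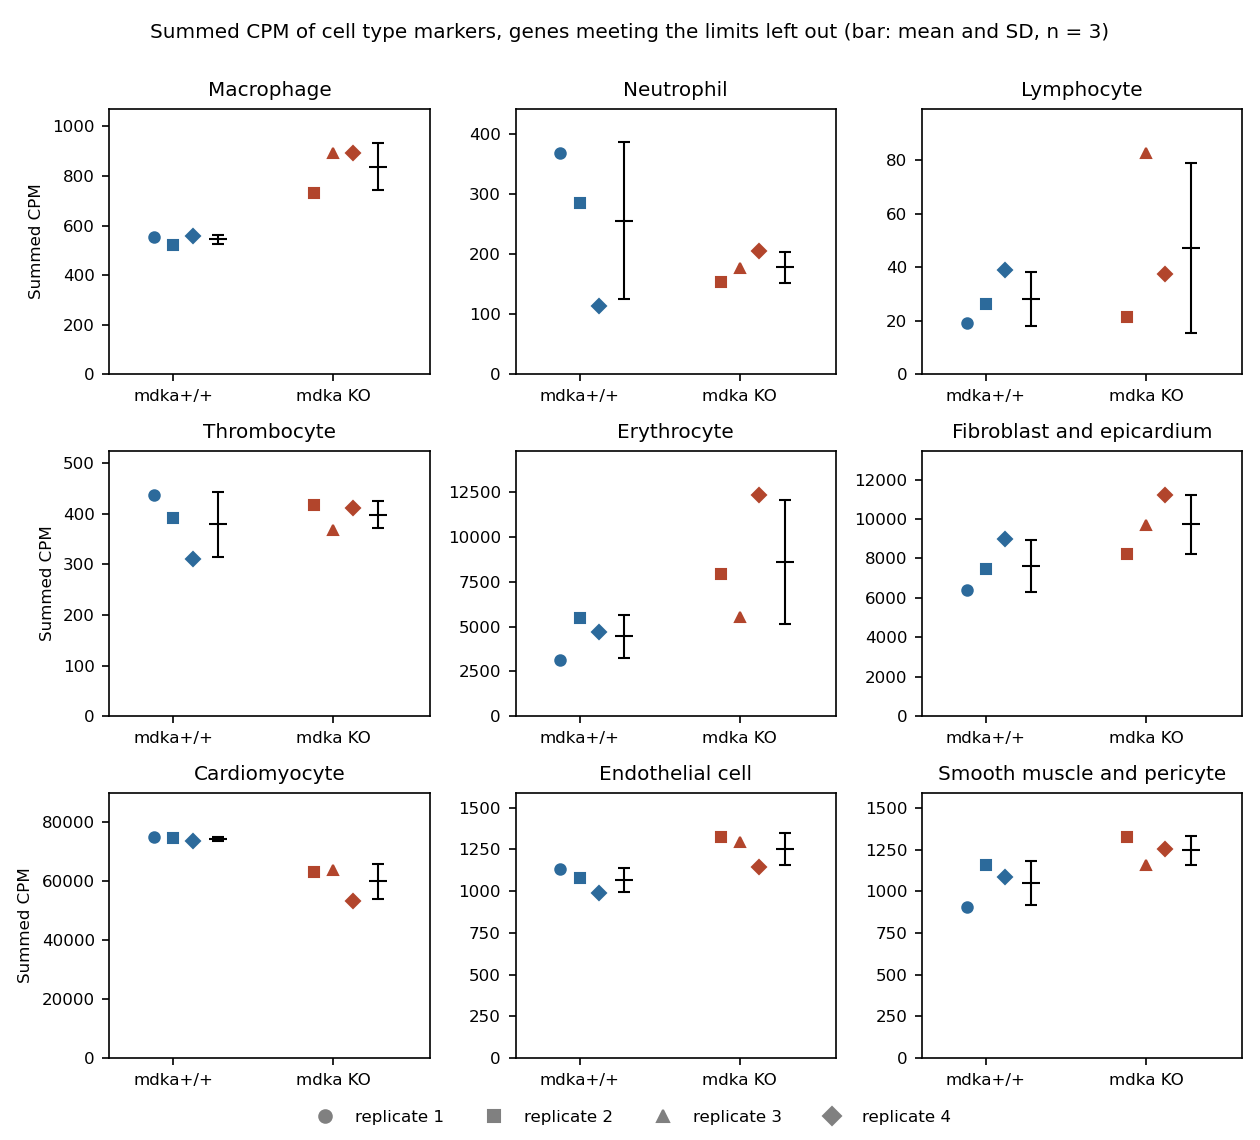
Summed CPM of marker genes of 9 cell types in each library, with mdka+/+ in blue, mdka KO in red, the marker shape for the replicate number and the bar for the mean and SD (n = 3). The sums leave out genes that meet the limits used to choose the 103 (*gp1bb*, *mpl* and *thbs1b* of the thrombocyte list, *elnb* of the smooth muscle list). Macrophage, erythrocyte and endothelial sums are higher in all KO pools, cardiomyocyte sums are lower (53164 to 63717 CPM against 73527 to 75012 CPM), and the other 5 overlap. Erythrocyte and endothelial sums are barely apart (lowest KO 5535 against highest mdka+/+ 5505 CPM, and 1145 against 1135 CPM), and both overlap with TMM scaling.

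Of the 16 genes with no assigned role, most carry clone-based names. *si:dkey-126g1.7*, annotated as an Nlrp12-like gene, had the widest gap, at 49.5, 50.7 and 47.7 CPM in the KO pools against 28.4, 22.6 and 17.8 CPM (log2 fold change 0.96 ± 0.18 SE). *si:ch211-250g4.3* stood at 260.4, 191 and 216 CPM against 72.0, 118 and 105 CPM (1.05 ± 0.20 SE).

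*zgc:193725*, annotated as an NPC2 gene, which binds cholesterol in the lysosome, stood at 37.6, 36.7 and 50.4 CPM against 11.2, 21.9 and 22.9 CPM (log2 fold change 1.02 ± 0.26 SE). *si:ch211-217k17.11* stood at 14.4, 15.4 and 19.8 CPM against 3.51, 5.75 and 9.08 CPM (1.3 ± 0.32 SE), and *si:ch211-214p13.9* at 22.4, 13.2 and 19.9 CPM against 8.57, 8.02 and 7.32 CPM (1.08 ± 0.22 SE). In the first 2 of these 3, mdka+/+ pool 1 was the lowest. The remaining 11 had log2 fold changes from 0.51 to 1.04.

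Over the 10 pathway and family lists, 357 genes other than the 103 were tested, and 0 passed an adjusted p under 0.05 in edgeR or in limma-voom. DESeq2 gave an adjusted p to 284 of them and passed 14 upwards and 3 downwards. Over the whole set of 17879 genes fitted, DESeq2 passed 224 upwards and 221 downwards, where edgeR passed 1. How many of the 17879 received an adjusted p from DESeq2 is not given here. The counts of the lists and of the whole set thus cannot be compared as shares. The list genes upwards were *smad6b*, AXL, *fhl1b*, *flna*, *tpm4b*, *ctsba*, *psap*, *tpp1*, *cd74a*, *cd74b*, *tapbp.1* (a chaperone of MHC class I loading), *snai1b* (a repressor of epithelial genes), *fbln5* and *fkbp9*. Those downwards were *myl9b*, *lamp1b* and *fgfr4*. Of the 14, *fhl1b* and *snai1b* met the numeric limits of the choice and were left out of the 103 by name, which leaves 12. The lists of lysosomal, actin and MHC genes each gave 3 of those upwards, of 46, 55 and 41 genes with an adjusted p. Without the share over all genes, these counts are a description only.

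The 103 genes lie on 23 chromosomes, at most 9 on one (chromosome 6), after the choice removed chromosome 7, and 11 neighbouring pairs lie within 1000000 bases, of which *fthl27* and *fthl31* are the closest. As a description of the same CPM values that chose the genes, the median SD over the mean was 10.8% in the KO pools and 15.3% in the mdka+/+ pools, beside 9.93% and 15.1% for all genes at or above 3 CPM. KO pool 4 was the highest KO pool for 48 of the 103, pool 3 for 28 and pool 2 for 27, beside 38.5%, 37.6% and 23.9% of all genes at or above 3 CPM. Counts were not whole in at least 1 pool for 32 genes and in all 6 pools for 17, since the counting tool divides reads that match several transcripts. The 17 include *gp1bb*, *hpse* and *myofl*, whose values are given above.

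Cardiomyocyte markers were lower in the KO pools, with 6 of 9 past the unadjusted threshold downwards and 0 upwards, and a summed KO level 0.806 times that of the mdka+/+ pools. These 9 genes alone made up 53164 to 75012 CPM, and their part in the CPM of the 103 genes was not tested. Smooth muscle and pericyte markers, summed without *elnb*, which is one of the 103 (an alternative chosen after the values were seen), stood at 1157 to 1325 CPM in the KO pools and 904 to 1160 CPM in the mdka+/+ pools, which overlap, with 1 of the 8 others tested past the unadjusted threshold upwards and 0 downwards. Endothelial markers summed to 1145 to 1325 CPM against 992 to 1135 CPM, with 1 of 8 upwards and 1 downwards, and these sums overlap with TMM scaling.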

How the data were processed

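Poly(A) RNA of 6 pools was sequenced by the authors as stranded libraries of 60-base single reads and quantified with RSEM on the Ensembl GRCz11 transcriptome. The deposited table holds RSEM expected counts, not normalized, in which reads matching several transcripts are divided. Symbols and coordinates came from a gene table of the study, of which only the first 1264 rows were available here. Its fold change and p columns hold the authors' own comparison and were not used. CPM was the expected count over the column sum. For edgeR 4.0.16 (R 4.3.3) counts were rounded, filtered with filterByExpr (minimum count 10, minimum total 15; 17879 genes kept), TMM-normalized and fitted by the quasi-likelihood test with Benjamini-Hochberg adjustment, two-sided, without covariates. On simulated data, 82.1% of 195 changed genes and 4.69% of unchanged genes passed an unadjusted p of 0.05. The changed genes were all given the same size of change (median fitted absolute log2 fold change 1.04), so smaller changes were not covered. An exact permutation test of 3 against 3 cannot go below 0.1. Values in every pool are given for up to 5 genes a role with the highest ratio of lowest KO to highest mdka+/+ pool, and for all genes of roles with at most 4. The members and lists were chosen with earlier results of these data known. Of 551 listed symbols 47 were not matched. Whether pools were separate crosses is not stated, so p-values measure the spread between these pools. Promoter and protein sequences were not analysed here. Values of a few of the 103 genes are not reported here. Alternatives were other normalizations, filters and limits, limma-voom (limma 3.58.1), DESeq2 1.42.0, a replicate block and leaving out each library.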

Additional observations from a re-analysis of the deposited data

How the results depend on the processing

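Each of the 103 genes kept a positive log2 fold change under all 13 alternatives to the edgeR fit (1339 of 1339 values, lowest 0.42). The choice of the genes from these same pools all but fixed these signs in advance, so they add no support. In size, 30 values moved by more than 1 SD, 24 of them with library size only and 6 with the replicate block. The count of 134 genes (103 named) became 482 (326) at a limit of 1.2, 241 (186) at 1.3, 51 (40) at 1.6 and 7 (4) at 2, 76 (55) with a mdka+/+ mean of at least 10 CPM, 67 (49) with TMM-scaled and 65 (48) with RLE-scaled CPM, and 181 to 281 (128 to 185) when 1 library was left out, since fewer pools have to agree. The ratio of means of *mhc1uba*, 41.6, was 8.46 when summed with the overlapping U-lineage gene *mhc1uca*. Over all tested genes, 2157 passed an unadjusted p under 0.05 (1009 up and 1148 down), with a range of 1332 (without KO replicate 4) to 2772 when 1 library was left out, and library size only gave 2081 up and 501 down. After adjustment 1 gene passed in edgeR, 19 with library size only, 19 with no filter and 2 with limma-voom. DESeq2 gave 445 (224 up and 221 down), and leaving out 1 library in edgeR gave 0 to 3. Of 260 list counts under alternatives, 88 changed by more than 1.5 times. Replicate numbers 2 and 4 occur in both genotypes. Deviations of equally numbered pools from their group means correlated at 0.09 and 0.002. Unequally numbered pools were not compared, so these values cannot settle whether the pools were paired. With the replicate block, KO pool 3 and mdka+/+ pool 1 have no partner, so the genotype difference rests on replicates 2 and 4. The block gave 1976 unadjusted and 4 adjusted calls, with log2 fold changes of the 103 from 0.49 to 5.78. The analysis of promoter letters and protein identity was not run. At 3 pools a genotype, the precision of each value is limited by the spread between pools, and genes near 3 CPM rest on few counts.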
